A study of Mus musculus with 39 samples.

Results

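Zfp is the symbol stem that mouse nomenclature gives to genes for zinc finger proteins, and the genes described here were chosen by their symbol, Zfp followed only by digits, and by a normalized count that averaged at least 100 over the 8 libraries of RNA-seq batch 1. This rule took 230 of the 24421 gene rows. The tables held 337 rows with such a symbol, and the other 107 fell below the threshold. The level in batch 1 therefore chose the genes, and levels are given as a description without a test. Just inside the threshold were Zfp367 with a mean of 100.2, Zfp568 with 103 and Zfp341 with 104, and just outside were Zfp658 with 98.8, Zfp551 with 95.8 and Zfp94 with 95.4. The nuclei came from the neocortex of young adult male and female mice that carried the Arc-creERT2 transgene (TG/WT) and, at the R26 locus, the CAG-Sun1-sfGFP-Myc allele, which was present as M/WT or M/M. Every animal received tamoxifen before a social interaction test, so that cells with an active Arc promoter gained a fluorescent Sun1 tag in the nuclear envelope, and both techniques drew on the same labelled population. In INTACT the tagged nuclei were captured with an antibody against GFP on magnetic beads, and in FANS they were sorted by flow cytometry on DAPI and GFP. Nuclear RNA was sequenced in 3 batches, each from a distinct biological source, with 4 FANS and 4 INTACT libraries in batch 1, 7 and 4 in batch 2, and 7 and 5 in batch 3. Open chromatin was profiled by ATAC-seq in 3 libraries per technique, which were technical replicates of one biological source.

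A classical zinc finger folds around a zinc ion held by cysteines and histidines, and tandem fingers read DNA base by base, so most of these proteins bind DNA at defined sites. Many Zfp genes, above all those in genomic clusters, encode KRAB zinc finger proteins. The KRAB domain recruits the scaffold Trim28 (KAP1), which in turn brings the histone methyltransferase Setdb1, HP1 proteins and the NuRD complex and silences transposable elements and imprinted loci. Others in the list have no KRAB domain and act as activators, chromatin cofactors or proteins of RNA metabolism.

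The libraries of batch 1 differed in depth between the techniques, with 4853224 to 6066759 reads counted on genes in a FANS library against 8621143 to 11028711 in an INTACT library, whereas batches 2 and 3 held 4205665 to 7292908 reads in either technique. In batch 1, reads assigned to no feature were 79.4 to 81.7% of all reads in FANS and 71.3 to 72.7% in INTACT. They were 79.4 to 81.6% and 77.4 to 78.9% in batch 2, and 80.0 to 85.1% and 81.9 to 83.0% in batch 3. How many of these reads lie in introns is not known. Whole reads recovered from the normalized values gave 71950 to 86195 reads on the 230 genes in each FANS library of batch 1 and 115021 to 153012 in each INTACT library. Of all gene reads in batch 1, the Zfp genes took 1.39 to 1.48% (FANS) and 1.33 to 1.39% (INTACT). The corresponding shares were 1.31 to 1.36% and 1.26 to 1.32% in batch 2, and 1.32 to 1.39% and 1.34 to 1.36% in batch 3. Slc17a7, the vesicular glutamate transporter of excitatory neurons, was present in every library, and in batch 1 it averaged 1746 ± 111 in FANS and 2462 ± 84.8 in INTACT (SD, n = 4 and 4, limma adjusted p = 1.92e-08). Of the 6 excitatory markers listed, it was the only 1 called higher in batch 1, and 3 were called lower. The sum over these 6 was 9003 to 9146 for FANS and 8432 to 8909 for INTACT. In batch 1 the sum over 6 astrocyte markers was 143 to 230.2 for FANS but 476 to 523 for INTACT (5 of 6 called higher), that over 8 oligodendrocyte markers 5690 against 9184 at the lowest and 7134 against 9717 at the highest (5 of 8 higher), and that over 6 inhibitory neuron markers at most 292 for FANS and at least 348 for INTACT (4 of 6 higher). Vascular markers were called higher for both genes that could be tested, and 1 of 3 tested microglial markers was lower. In batch 2, 2 of 6 astrocyte and 3 of 7 tested oligodendrocyte markers were called higher, and in batch 3 no glial, inhibitory or vascular marker was called. In these bulk samples, fewer cells of a type and less RNA per cell cannot be told apart. The part of the glial markers, of depth and of the reads without a feature in the differences below was not tested.

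Most of the genes were transcribed at modest levels. The median of the 230 means in batch 1 was 261 normalized counts, and the lower and upper quartiles were 167 and 493. By normalized count per kb of annotated exon, the scale on which genes can be compared, Zfp207 was highest with 737, followed by Zfp445 with 717 and Zfp638 with 439. Zfp207 (BuGZ) binds Bub3 and acts on the mitotic spindle and in splicing, Zfp445 guards imprinted methylation together with Zfp57, and Zfp638 (NP220) binds unintegrated retroviral DNA and recruits the HUSH complex. At the other end stood Zfp568 with 14.3, Zfp382 with 16.6 and Zfp442 with 17.4 per kb. Zfp568 is a KRAB protein that represses a placental promoter of Igf2. The order of these genes was not tested, because the level chose them.

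In batch 1 more of the Zfp genes were called lower than higher in INTACT-nuclei. Of the 230, 60 were called lower and 19 higher in INTACT compared to FANS, while 151 did not pass the test (limma on log2(normalized count + 1), Benjamini-Hochberg adjusted p under 0.05 over all genes tested). Over all 15114 genes tested, 17.5% were called lower and 18.6% higher, and over the 8899 of them with a mean of at least 100, the class to which the Zfp genes belong, 23.5% were called lower and 25.1% higher. Of the Zfp genes, 26.1% were called lower, which is near that background, and 8.26% were called higher, against the 25.1% there. Their median log2 fold change was -0.07, against 0.01 over all genes tested, and 150 of the 230 lay below 0. The changes were small: only Zfp407 and Zfp609 passed a change of 1.5-fold as well, both lower, and none did so upwards, against 3.94% of all genes tested lower and 4.03% higher by that rule, and 2.11% and 3.06% of those with a mean of at least 100. That count of 2 became 1 without FANS replicate 3 or 4 and 3 without FANS replicate 1. The FANS and INTACT libraries did not overlap for 55 genes that were lower and 15 that were higher, where 16.5% and 17.1% of all genes tested, and 22.0% and 22.8% of those with a mean of at least 100, were so separated. Of the 107 Zfp rows below the threshold, 93 could be tested, of which 8 were lower and 6 higher, with a median of 0.02.

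**Figure D1:**
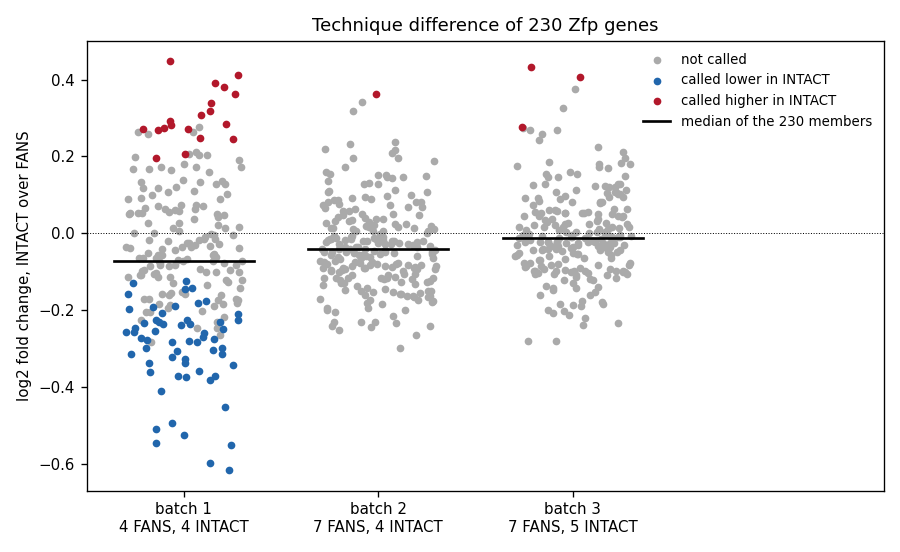
Log2 fold change of INTACT over FANS (vertical axis) for each of the 230 Zfp genes in the 3 RNA-seq batches (horizontal axis, points spread sideways only for display), coloured by the limma call at adjusted p under 0.05. Batch 1 holds 60 genes called lower and 19 called higher, batch 2 holds 1 called higher and batch 3 holds 3, and the black lines mark medians of -0.07, -0.04 and -0.01.

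Among the genes lower in batch 1, the smallest adjusted p-values belonged to Zfp609, Zfp407, Zfp827, Zfp462 and Zfp612. Zfp609, which lies at chr9:65691578-65827564 (mm10, minus strand) and whose protein works with the cohesin loader Nipbl and the Integrator complex, had normalized counts of 813, 826, 749.5 and 849.7 in the FANS libraries and 586, 531, 543 and 483 in the INTACT libraries. The lowest FANS library stood above the highest INTACT library, and the log2 fold change was -0.60 ± 0.06 (SE, limma adjusted p = 6.74e-08). Zfp407, a large protein with many fingers, gave 749.8, 727, 929 and 873 in FANS and 549, 525, 519 and 534 in INTACT, again without overlap, a change of -0.62 ± 0.07 (adjusted p = 1.36e-07). Zfp827 recruits the NuRD complex to telomeres in cells that maintain them by recombination, and it had 722, 795, 823 and 775 in FANS against 562, 605, 584 and 589.6 in INTACT. Its log2 fold change was -0.41 ± 0.06 (adjusted p = 4.17e-06). For Zfp462, which keeps heterochromatin at lineage genes, the FANS libraries were more scattered, with 916, 873, 1071 and 1199.7, than the INTACT libraries with 698, 724, 712 and 693. All INTACT values nevertheless lay below all FANS values, and the change was -0.51 ± 0.07 (adjusted p = 4.2e-06). Zfp612 fell from 1011 ± 32.7 to 781 ± 30.0 (SD, n = 4 and 4, adjusted p = 4.27e-06 in limma). The smallest change called lower was -0.12 for Zfp207, a call that was lost whenever a library other than FANS replicate 4 was left out (limma adjusted p from 0.0512 to 0.133). It was also lost without the filter on low values (0.0724), under quantile normalization (0.265) and with a replicate block (0.0586).

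Among the genes higher in batch 1, Zfp692, Zfp598, Zfp335, Zfp414 and Zfp277 had the smallest adjusted p-values. Zfp692 was first known as a repressor of gluconeogenic genes that AMPK phosphorylates. Its normalized counts were 593, 630.2, 626 and 558 in FANS and 802, 786, 822 and 787 in INTACT, so that every INTACT library stood above every FANS library, a rise of 0.41 ± 0.06 on the log2 scale (adjusted p = 3.37e-06 in limma). Zfp598 is not a transcription factor but a ubiquitin ligase that marks collided ribosomes. It gave 427, 395, 422 and 381 in FANS and 533, 541, 593 and 551 in INTACT. This was the steepest rise among the 230 genes in this batch at 0.45 ± 0.06 (limma adjusted p = 5.8e-06). Zfp335, a cofactor of histone H3K4 methyltransferase complexes whose loss causes microcephaly, had 652, 601, 585 and 507 in FANS and 757, 696, 738 and 702 in INTACT (0.31 ± 0.07, adjusted p = 0.000733). The techniques were also separated for Zfp414, which had at most 218 in a FANS library and at least 239.6 in an INTACT library (0.39 ± 0.09), and for Zfp277, with at most 232 and at least 247 (0.38 ± 0.09). Leaving out any 1 library of batch 1 kept all 10 of these genes past the threshold.

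**Figure D2:**
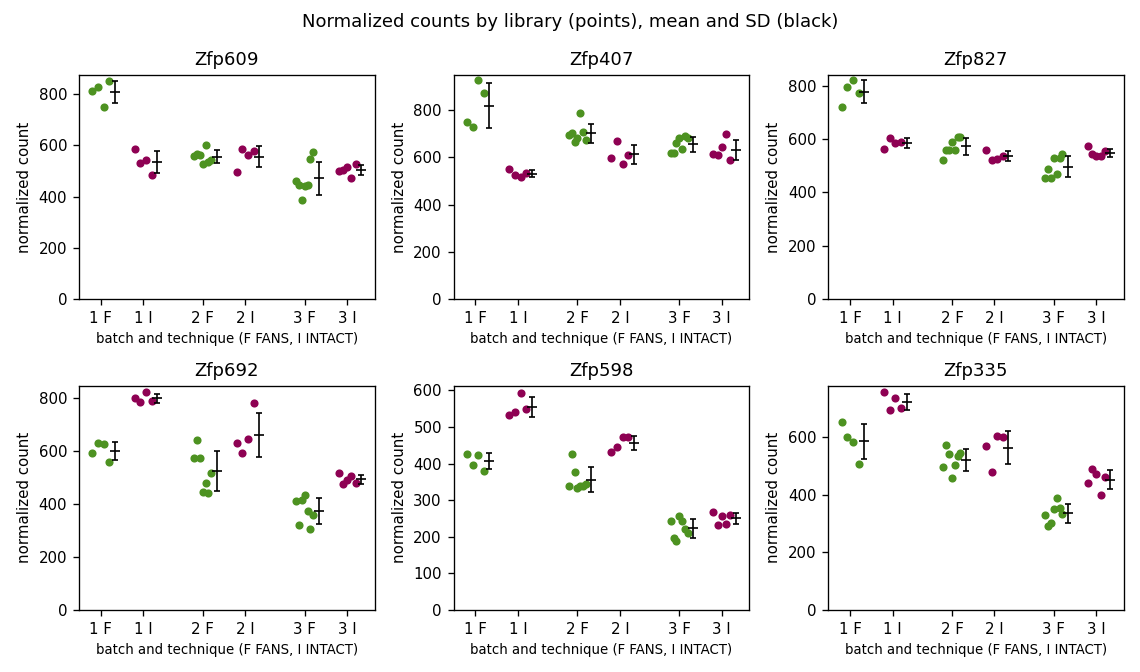
Normalized counts (vertical axes, from 0) of 6 Zfp genes in each of the 31 RNA-seq libraries, by batch and technique, with FANS (F) in green and INTACT (I) in purple and the mean ± SD in black. Zfp609, Zfp407 and Zfp827 separate the techniques in batch 1 but not in batches 2 and 3, while Zfp692 and Zfp335 separate them in batches 1 and 3 and Zfp598 in batches 1 and 2, and scales differ between batches.

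Of 21 Zfp genes with a well known function that were listed, 17 passed the threshold of 100. In batch 1, of these Zfp609, Zfp462, Zfp644 and Zfp711 were called lower, Zfp281, Zfp335 and Zfp598 higher, and the other 10 were not called, beside 60 lower and 19 higher among all 230. Zfp644, a partner of Wiz that anchors the G9a and GLP methyltransferases, averaged 1100.2 in FANS and 908 in INTACT (log2 fold change -0.28, limma adjusted p = 9.71e-05). Zfp711, an X-linked protein that works with the demethylase Phf8, averaged 366 and 320.4 (-0.19, adjusted p = 0.0374). Zfp281, which binds GC-rich promoters of pluripotency genes, averaged 1039 in FANS and 1197 in INTACT (0.21, adjusted p = 0.00464). The call of Zfp711 was lost with DESeq2 (adjusted p = 0.0632) and without FANS replicate 3, INTACT replicate 1, 2 or 3 (0.0964, 0.128, 0.0558 and 0.085 in limma), and with a replicate block (0.0533). Zfp57, which with Zfp445 keeps methylation at imprinting control regions, had 248 and 230.1, a difference of -0.11 (adjusted p = 0.36), whereas Zfp445 itself fell from 4896 to 4151 (-0.24, adjusted p = 0.000287). Zfp809, which recruits Trim28 to the primer binding site of murine retroviruses, had 206 and 196 (-0.07, adjusted p = 0.596). Zfp292, Zfp148, Zfp143, Zfp110, Zfp365, Zfp536, Zfp568 and Zfp638 were not called either, with log2 fold changes from -0.13 for Zfp143 to 0.14 for Zfp110.

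The same comparison in the other batches gave few calls. In batch 2, none of the 230 genes was called lower and only Zfp598 was called higher (limma), beside 0.309% lower and 0.834% higher over all genes tested, and 21 genes were lower and 7 higher at an unadjusted p under 0.05, where 6.58% and 8.66% of all genes tested were. With edgeR on the recovered reads 0 were lower and 2 higher, and with DESeq2 1 was lower and 2 were higher. Zfp598 ranged from 332 to 425 in the 7 FANS libraries around a median of 338, and had 433, 447, 473 and 472 in the INTACT libraries. Its groups did not overlap (0.36 ± 0.07, limma adjusted p = 0.0128), and it kept this call whichever single library was left out but lost it with a replicate block (0.25, adjusted p = 0.341). Zfp692 lay between 440.2 and 643 in FANS and at 629.8, 591, 646 and 782 in INTACT, a difference of 0.34 that missed the threshold (adjusted p = 0.0514) and passed it without FANS replicate 2 or 4 (0.00852 and 0.0436). In batch 3, none was called lower and 3 were called higher, beside 0.519% and 1.18% over all genes tested, and 8 were lower and 13 higher at an unadjusted p under 0.05, where 6.46% and 7.29% of all genes tested were. edgeR gave 0 lower and 3 higher, and DESeq2 gave 0 lower and 4 higher. The 3 called by limma were Zfp335, Zfp692 and Zfp523, the last a close relative of the snRNA gene activator Zfp143. Zfp335 ranged from 290.2 to 389 in FANS with a median of 333, and had 443, 491, 471, 400.3 and 462 in INTACT, with no overlap and a change of 0.43 ± 0.07 (limma adjusted p = 0.000913). Zfp692 likewise ranged from 306 to 434 around 373 in FANS and had 516, 476, 489, 504 and 479 in INTACT (0.41 ± 0.08, adjusted p = 0.00296). The groups of Zfp523 overlapped, since it spanned 309 to 409.6 in FANS around 345.5 and the INTACT libraries had 425, 388, 460.4, 379.8 and 431 (0.28 ± 0.07, adjusted p = 0.0403). The call of Zfp523 was lost without any of FANS replicates 1, 2, 3, 5 and 6 or INTACT replicates 1, 3 and 5, where the limma adjusted p ran from 0.0545 to 0.188, and without the filter on low values (0.0647). Over the 230 genes the median log2 fold change was -0.04 in batch 2, with 152 below 0, and -0.01 in batch 3, with 130 below 0.

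The genes called in batch 1 can be followed into the other batches, which share no library with it. Of the 60 genes lower in batch 1, 56 lay below 0 in batch 2, with a median of -0.08, and 28 in batch 3. Of the 19 higher genes, 16 lay above 0 in batch 2 and 9 in batch 3. Of the 151 genes not called in batch 1, 93 lay below 0 in batch 2 and 92 in batch 3. Across the 230 genes the log2 fold changes of batches 1 and 2 had a Spearman correlation of 0.37 (0.44 over all genes tested in both, and 0.63 over the 8233 of them with a mean of at least 100 in each), those of batches 1 and 3 one of -0.07, and those of batches 2 and 3 one of 0.11, where the points share the libraries of their batch. The technique differences were also compared between batches in one limma model. For batch 1 minus batch 2, 10 of the Zfp genes had a negative and 0 a positive difference at adjusted p under 0.05, where 4.43% and 1.87% of the 14332 genes in the model did. For batch 1 minus batch 3, 30 were negative and 9 positive, against 12.1% and 11.2% of all genes. For batch 2 minus batch 3 limma called 0 genes, while 15 of the Zfp genes were negative and 4 positive at an unadjusted p under 0.05, beside 5.44% and 7.34% of all genes. At that unadjusted level 26 were negative and 11 positive for batch 1 minus batch 2, beside 11.5% and 9.54% of all genes. The batches are different biological sources, batch 1 also differed from the other batches in RNA integrity and in the depth of its INTACT libraries, and these cannot be told apart. The count of 10 fell to 6 without FANS replicate 3 or INTACT replicate 3 of batch 1 or INTACT replicate 4 of batch 2, and the count of 9 to 5 without FANS replicate 3 of batch 1. The smallest p-values belonged to Zfp609, Zfp407 and Zfp532 for batch 2, and to Zfp609, Zfp827 and Zfp407 for batch 3. Zfp609 differed by -0.59 ± 0.11 (limma adjusted p = 0.000289) from batch 2, in which it averaged 557 in FANS and 556 in INTACT, and by -0.70 ± 0.10 (adjusted p = 2.39e-06) from batch 3, in which it averaged 471 and 504. For Zfp827 the difference from batch 3 was -0.56 ± 0.08 (adjusted p = 2.65e-06), with 497 in FANS and 549 in INTACT in that batch. Zfp407 differed by -0.42 ± 0.09 from batch 2 and by -0.56 ± 0.09 from batch 3, and Zfp532 by -0.35 ± 0.08 from batch 2.

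The genes called lower in batch 1 spanned more of the genome than the others. Their annotated span had a median of 24.2 kb, against 11.9 kb for the genes called higher and 16.5 kb for those not called. The Zfp genes as a whole are short, with a median span of 19.3 kb against 31.4 kb for all tested genes with a mean of at least 100, and hold a median of 5 exons against 11. Across the 230 genes the log2 fold change of batch 1 had a Spearman correlation of -0.39 with span, beside -0.44 over the 8876 annotated genes with a mean of at least 100, a description over genes that share the same 8 libraries. In batches 2 and 3 it was -0.10 and -0.02 over the Zfp genes, beside -0.30 and -0.09 over all genes with a mean of at least 100. Of the 58 shortest genes, up to 12.5 kb, 3 were called lower and 12 higher, with a median of 0.06, whereas 50.5% of all genes of that span with a mean of at least 100 were called higher and their median was 0.25. Of the 58 longest, from 29.2 kb, 23 were lower and 1 higher, with a median of -0.17, and of all genes in that range 34.1% were lower and 12.8% higher, with a median of -0.09. In each of 4 equal classes of span the median of the Zfp genes was thus below that of all genes of the same span. Zfp536, a repressor of neuronal differentiation with the longest span at 456 kb, departed from the trend with 137 normalized counts in FANS and 144 in INTACT (0.09, limma adjusted p = 0.615). GC content of the exons, with a median of 44.5% against 49.2% for all genes with a mean of at least 100, had correlations of 0.04, 0.13 and 0.28 with the differences of batches 1, 2 and 3, beside 0.23, 0.33 and 0.32 over all genes of that class.

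**Figure D3:**
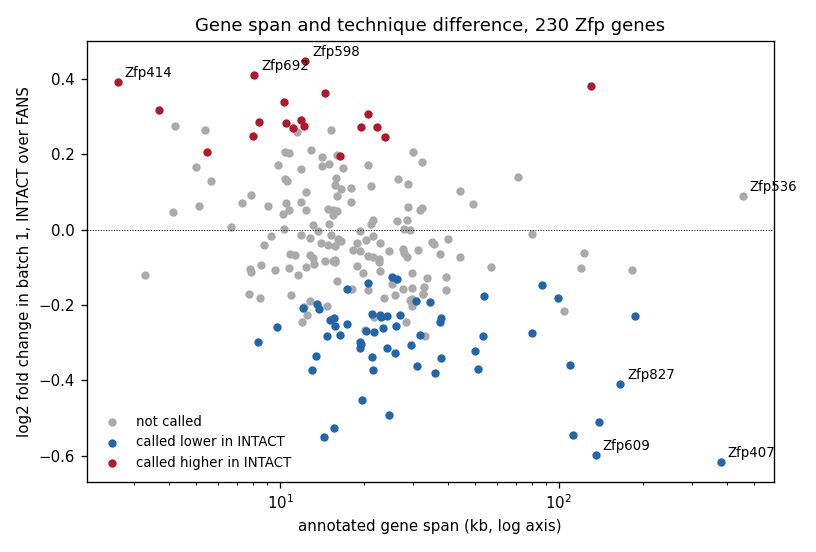
Log2 fold change of INTACT over FANS in batch 1 (vertical axis) against the annotated gene span in kb (horizontal axis, logarithmic) for the 230 Zfp genes, coloured by call. Genes called lower have a median span of 24.2 kb and reach 382 kb (Zfp407), and genes called higher have a median of 11.9 kb.

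The partners of the KRAB domain were looked at as well. Of 26 listed co-repressor genes, 25 could be tested, and 5 of them were lower and 6 higher in batch 1, which is 20% and 24%. The shares were 17.5% and 18.6% over all genes tested, and 23.5% and 25.1% over those with a mean of at least 100. The co-repressors had a median of 0.01. Trim28, the scaffold that KRAB domains bind, rose from 562 ± 38.5 to 777 ± 27.2 (SD, n = 4 and 4, log2 fold change 0.47, limma adjusted p = 1.19e-06), and Chd4, the NuRD remodeller, from 2831 to 3742 (0.41, adjusted p = 1.79e-06). The other genes called higher were the methyltransferase Ehmt2 (0.27), the remodellers Chd3 (0.22) and Smarcad1 (0.15), and Morc2a (0.21), which acts with the HUSH complex. Setdb1 had 784 in FANS and 719.6 in INTACT, a difference of -0.12 (adjusted p = 0.143). Lower were Ehmt1 (-0.54), the partner of Ehmt2, Dnmt3a (-0.36), Atf7ip (-0.30), Mphosph8 (-0.28) and Atrx (-0.14). In batch 2 Chd3 and in batch 3 Ehmt2 was the only one called, both higher. Trim28 averaged 480 in FANS and 545 in INTACT in batch 2 (adjusted p = 0.197) and 337 and 355 in batch 3 (adjusted p = 0.698). Among the related families in batch 1, 5 of 39 tested Zbtb genes were lower and 6 higher, 3 of 20 Zscan and Zkscan genes lower and 1 higher, and 2 of 13 Klf genes lower and 2 higher, with medians of -0.07, -0.10 and 0.13. These families are small. The shares given above were 17.5% and 18.6% over all genes tested, and 23.5% and 25.1% over those with a mean of at least 100.

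Zfp genes arise by tandem duplication, and many of those described here still lie in clusters. Chromosome 7 held 54 of the 230, which is 23.5% where 8.99% of all annotated rows lie on it, followed by chromosome 17 with 28 and chromosome 13 with 20. Clusters were taken as runs of at least 3 Zfp rows of any level whose starts follow each other within 250 kb. There were 24 such clusters with 158 Zfp rows, and 107 of the 230 genes lay in them. Those 107 had a lower median level per kb than the other 123, with 64.6 against 84.1. Inside clusters 24 genes were lower and 9 higher in batch 1, with a median log2 fold change of -0.06, and outside 36 were lower and 10 higher, with a median of -0.10. The cluster at chr13:67038594-67827000 held 19 Zfp rows and 13 of the genes, from Zfp712 to Zfp273. Only 4 of these 13 lay below 0 in batch 1, their differences ran from -0.28 to 0.36, and 1 was called lower and 2 higher. At chr7:29768552-30169775, 13 of 15 Zfp rows passed the threshold, among them Zfp568 and Zfp382, and 10 lay below 0, with 3 called lower and a range from -0.37 to 0.21. In the cluster at chr17:21383707-22456689, which runs from Zfp51 to Zfp946, 8 of the 10 genes lay below 0, 2 were called lower, and the median was -0.17. In batch 2, 8 of 13, 9 of 13 and 5 of 10 genes of these clusters lay below 0, and in batch 3, 10 of 13, 9 of 13 and 8 of 10. Neighbours thus took different signs within each of these clusters. Paralogs in a cluster can share long stretches of sequence, and reads that align to several of them are lost when only uniquely aligned reads are counted, so the levels of close copies are uncertain.

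**Figure D4:**
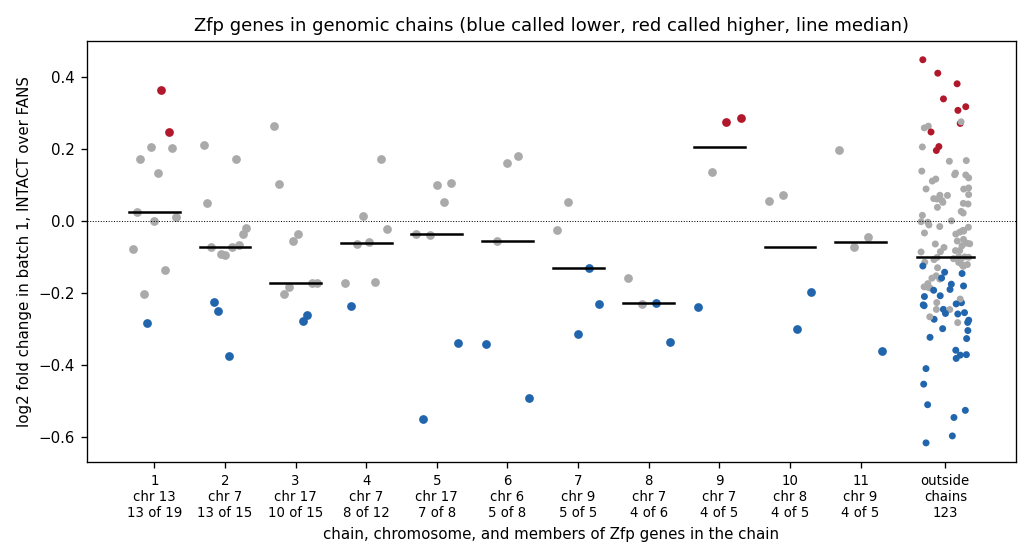
Log2 fold change of INTACT over FANS in batch 1 (vertical axis) for Zfp genes in the 11 genomic clusters with at least 4 of them (horizontal axis, with the chromosome and how many of the Zfp rows of the cluster passed the threshold) and for the 123 genes outside clusters. Blue points were called lower and red points higher, black lines are medians, and the first 3 clusters have medians of 0.03, -0.07 and -0.17.

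Nearly every start site was open in both techniques. Within 1 kb of an annotated start, 225 of the 230 genes had a peak in all 6 ATAC-seq lists, 1 had a peak in 5 lists and 4 had none. In comparison, 94.9% of all annotated genes with a mean of at least 100 and 57% of all annotated genes had a peak in all 6. The gene with 5 lists was Zfp11, which had peaks at percentiles 62.1, 65.8 and 41.8 in FANS and 29.5 and 36.3 in INTACT replicates 2 and 3, and none in INTACT replicate 1. The 4 without a peak were Zfp652, Zfp831, Zfp626 and Zfp235, with batch 1 levels of 286, 262, 253 and 214. The nearest peak to Zfp235 lay 1.27 to 1.44 kb from the start and that to Zfp626 1.88 to 2.2 kb, so that both had peaks past the window. That to Zfp831 lay 1.78 to 2.05 kb away in 5 lists and 6.28 kb away in INTACT replicate 1. For Zfp652 it was 8.48 to 8.52 kb away in the FANS lists and 32.6 to 35.3 kb away in the INTACT lists. Zfp652, a repressor that partners with Cbfa2t3, and Zfp831 were both among the genes lower in batch 1 RNA, with log2 fold changes of -0.53 and -0.55.

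The peaks were tall for their lists. Height here is column 7 of the lists, the fold enrichment at the summit that the peak caller wrote, and it was turned into a percentile within each list because the depth of the lists is unknown. The tallest peak at the Zfp starts had a median percentile of 93.8, 94.4 and 93.2 in the FANS lists and of 91, 90.5 and 93.0 in the INTACT lists. For all annotated genes with a mean of at least 100 the medians were 89.3, 88.8 and 88.8 in FANS and 84.8, 84.2 and 86.9 in INTACT. Over the 225 genes with 6 peaks, the median of the 6 percentiles exceeded 90 for 133 genes and fell below 50 for 8. Highest were Zfp619, Zfp961 and Zfp959, each within the top 1% of every list. Lowest were Zfp532 with 32.0, 26.8 and 26.7 in FANS and 35.8, 38.5 and 35.1 in INTACT, Zfp462 with 31.5, 42.1 and 43.3 and with 42.5, 38.2 and 41.8, and Zfp629. The height percentile was hardly related to the level per kb in batch 1 (Spearman correlation 0.08 across 225 genes). Genes in clusters had a median percentile of 95.1 and genes outside one of 89.9. In the chromosome 13 cluster the genes ran from 83.4 to 99.8 with a median of 97.7. At 30 of the 230 genes another annotated gene starts within 1 kb, so the peak may belong to that start, and their median percentile was 85.9 against 93.6 for the rest.

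The ranks of these peaks were then compared between the techniques. The FANS lists held 123596, 128910 and 130088 peaks and the INTACT lists 113224, 99514 and 123895. A percentile depends on how many lower peaks its list holds, and the part of list length in the differences was not tested. With limma on the percentile over the 13788 genes with a peak in all lists, 11 of the 225 Zfp genes were lower and 2 higher in INTACT, where 8.57% of all genes were lower and 0.827% higher. The median difference was -1.80 percentile points for the Zfp genes and -3.00 for all genes, with 70.7% and 76.7% below 0, and the libraries did not overlap for 82 of the 225, which is 36.4%, where they did not for 43.4% of all genes and 44.1% of those with a mean of at least 100. The direction depended on the scale, since on quantile-normalized log2 heights 11 Zfp genes were lower and 8 higher, with a median of 0.02. On that scale Zfp316, Zfp335, Zfp422, Zfp523 and Zfp810, called lower by percentile, did not pass (limma adjusted p = 0.435, 0.093, 0.227, 0.0639 and 0.123). Zfp629 had percentiles of 59.3, 67.8 and 62 in FANS and 19.6, 21.5 and 25.2 in INTACT, a drop of -40.91 ± 2.71 points (SE, limma adjusted p = 0.00588). Zfp850 went from 77.7, 80.8 and 82.5 to 60, 55.3 and 58.2 (-22.54 ± 1.85, adjusted p = 0.00722) and Zfp207, the highest of these genes per kb, from 92.2, 94.6 and 93.1 to 75.5, 79.4 and 77.1 (-15.95 ± 1.35, adjusted p = 0.00759). In each case all INTACT lists ranked the peak below all FANS lists. Zfp335 (-19.11) and Zfp523 (-14.26), whose RNA was higher in INTACT in batch 3, were lower too, with FANS lists at 60.4 to 62.2 and 80.4 to 84.7 and INTACT lists at 38.5 to 46.8 and 65.3 to 69.5. Zfp641 (-47.15), Zfp251 (-22.41), Zfp941 (-19.15), Zfp316 (-14.34), Zfp422 (-7.79) and Zfp810 (-5.73) completed the lower genes. Higher were Zfp65, with 76.6, 78.3 and 79.6 in FANS and 88.8, 90.6 and 87.2 in INTACT (10.70 ± 1.33, adjusted p = 0.0171), and Zfp574 (5.66). These are technical replicates of one source, so the p-values measure only technical spread, and an exact permutation test of 3 against 3 cannot go below 0.1. Whichever FANS list was left out, 3 genes were called lower, Zfp629, Zfp850 and Zfp207, and none higher. With a replicate block these 3 calls, like the other 10, were lost, with limma adjusted p of 0.055, 0.0673 and 0.055. Without INTACT replicate 1, 7 genes were lower, and without INTACT replicate 3, 39 were.

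**Figure D5:**
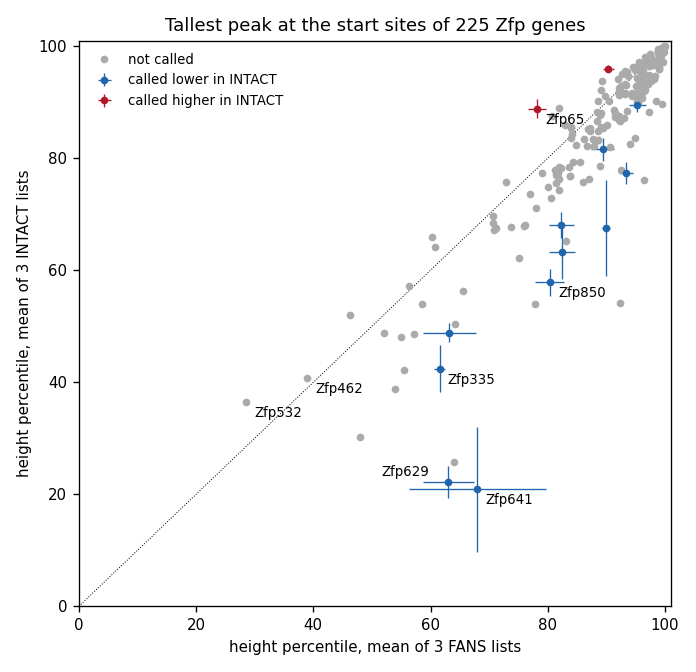
Height percentile of the tallest peak within 1 kb of the start sites of 225 Zfp genes, as the mean of the 3 INTACT lists (vertical axis) against the mean of the 3 FANS lists (horizontal axis), with SD bars for genes called by limma and a dotted line of equality. Most points lie in the upper corner near the line, and Zfp629 and Zfp641 lie far below it, near 63 and 68 in FANS and near 22.1 and 20.9 in INTACT.

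RNA and peak rank were set side by side for the same genes, although they come from different nuclei. The 60 genes with lower RNA in batch 1 had a median height percentile of 91.2 and a median difference of -2.85 points, the 19 higher genes 94.1 and -1.67, and the 151 others 93.6 and -1.39. Of the 11 genes with a lower peak rank, 3 were lower, 1 was higher and 7 were not called in batch 1 RNA. Across the 225 genes the Spearman correlation between the RNA difference of batch 1 and the height difference was 0.15. Zfp629, with the clearest drop in peak rank, had 305 normalized counts in FANS and 296 in INTACT in batch 1 (log2 fold change -0.04, limma adjusted p = 0.729). For Zfp65 both measures were higher in INTACT, with RNA at 192 and 227 (0.25, adjusted p = 0.0358). That RNA call did not pass with DESeq2 (adjusted p = 0.0598), under quantile normalization (0.0617) or without FANS replicate 1, INTACT replicate 1, 3 or 4 (0.133, 0.0765, 0.0995 and 0.0814 in limma).

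Promoter sequences from RefSeq (GRCm38.p6, the mm10 assembly) were matched for 192 of the 230 genes by symbol, as windows of 300 bases that reach 250 before and 50 past each start. Of 6 core motifs searched on both strands, the CCAAT box of NFY (CCAAT) was in 50.5% of the Zfp promoters against 42.8% of the 7049 promoters of tested genes with a mean of at least 100, and the GC box of SP1 (GGGCGG) in 47.4% against 71.1%. The ETS core (CCGGAAG) was in 21.4% against 20.5%, the YY1 core (AAGATGGC) in 7.81% against 5.75%, the NRF1 core (GCATGCGC) in 6.77% against 6.68% and the cAMP response element (TGACGTCA) in 4.17% against 4.1%. Over all 11701 promoters of genes tested the shares were 42.4, 65.7, 18, 4.86, 5.62 and 3.42% in the same order. The GC content of the Zfp promoters had a median of 55.3%, against 62% in that class of genes and 60.3% over all tested. The CCAAT box was in 33 of the 47 promoters with the tallest peaks and in 19 of the 47 with the lowest. The same counts were 16 and 24 for the GC box, 9 and 13 for the ETS core and 2 and 6 for the YY1 core. For the NRF1 core they were 1 and 3, and for the cAMP response element 1 and 2. Promoters with a CCAAT box had a median percentile of 95 and those without it of 91.4, and over all genes the medians were 90.04 and 85. In the RNA of batch 1, the median log2 fold change was -0.07 both for the 97 genes with a CCAAT box and for the 95 without it. Of those with it 21 were called lower and 11 higher, and of those without it 28 and 5, beside 60 and 19 among all 230.

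The 250 bases before the start are shown for 7 genes on which these results turn, with the matched motifs in capitals. For Zfp959, Zfp335 and Zfp629 the start used lies inside the annotated span of the gene. The first 3 had the tallest peaks in all lists, at chr7:39517516-39517765, chr8:71950816-71951065 and chr17:55891843-55892092, all on the plus strand, and their capitals mark the CCAAT box.
Zfp619: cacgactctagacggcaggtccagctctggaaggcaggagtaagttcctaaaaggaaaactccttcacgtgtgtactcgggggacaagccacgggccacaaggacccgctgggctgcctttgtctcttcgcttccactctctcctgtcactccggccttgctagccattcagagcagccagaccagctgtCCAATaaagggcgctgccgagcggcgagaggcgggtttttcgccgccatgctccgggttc
Zfp961: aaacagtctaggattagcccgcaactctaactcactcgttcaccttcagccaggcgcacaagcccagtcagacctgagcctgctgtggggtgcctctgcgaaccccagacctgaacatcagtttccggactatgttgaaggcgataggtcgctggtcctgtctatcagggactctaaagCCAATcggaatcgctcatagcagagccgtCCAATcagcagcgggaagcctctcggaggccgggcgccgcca
Zfp959: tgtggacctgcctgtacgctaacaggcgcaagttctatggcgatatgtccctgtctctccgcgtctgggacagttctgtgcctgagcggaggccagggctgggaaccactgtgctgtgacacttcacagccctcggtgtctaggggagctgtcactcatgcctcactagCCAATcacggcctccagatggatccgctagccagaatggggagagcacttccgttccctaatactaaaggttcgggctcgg
Each holds at least 1 CCAAT box and no GC box in these 250 bases. The next 3 are genes with higher RNA in INTACT, Zfp598 at chr17:24669437-24669686 on the plus strand, Zfp335 at chr2:164911751-164912000 on the minus strand and Zfp523 at chr17:28176946-28177195 on the plus strand. For Zfp523 this is the stretch before 1 of its 2 starts in the RefSeq table. Capitals mark the GC box in Zfp598 and, in Zfp335 and Zfp523, the palindromic cAMP response element TGACGTCA, a motif added after these sequences had been read. The same stretches before Zfp692, also higher in INTACT, and Zfp827, lower in batch 1, held none of the 6 motifs and are not shown.
Zfp598: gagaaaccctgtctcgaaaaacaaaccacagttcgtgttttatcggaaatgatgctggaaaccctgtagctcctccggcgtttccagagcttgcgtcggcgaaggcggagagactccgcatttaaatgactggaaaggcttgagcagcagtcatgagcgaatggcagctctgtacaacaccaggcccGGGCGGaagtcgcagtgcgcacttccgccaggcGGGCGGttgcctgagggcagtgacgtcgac
Zfp335: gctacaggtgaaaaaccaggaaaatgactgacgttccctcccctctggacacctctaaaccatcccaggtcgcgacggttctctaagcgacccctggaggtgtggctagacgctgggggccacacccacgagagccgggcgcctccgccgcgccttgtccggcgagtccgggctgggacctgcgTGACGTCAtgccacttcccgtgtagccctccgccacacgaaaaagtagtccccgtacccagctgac
Zfp523: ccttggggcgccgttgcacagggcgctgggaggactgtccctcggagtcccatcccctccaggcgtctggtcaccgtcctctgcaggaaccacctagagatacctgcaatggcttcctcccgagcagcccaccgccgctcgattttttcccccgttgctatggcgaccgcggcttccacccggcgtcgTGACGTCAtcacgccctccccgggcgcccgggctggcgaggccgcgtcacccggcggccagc
The cAMP response element was in 4.17% of the matched Zfp promoters and in 3.42% of all. The last is the stretch before 1 of the 3 starts of Zfp629 in the RefSeq table, at chr7:127615273-127615522 on the minus strand, the gene whose peak rank dropped most clearly, and none of the motifs is in these bases.
Zfp629: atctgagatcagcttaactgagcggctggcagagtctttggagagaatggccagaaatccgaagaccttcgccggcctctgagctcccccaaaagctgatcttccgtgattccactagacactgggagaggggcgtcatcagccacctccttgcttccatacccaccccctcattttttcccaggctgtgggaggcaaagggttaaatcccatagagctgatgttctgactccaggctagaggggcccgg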

How the data were processed

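Nuclear RNA was measured in 31 libraries (18 FANS, 13 INTACT) and open chromatin in 6. The RNA values are a signal deposited by the authors: single-end reads were aligned with STAR to mm10, deduplicated by UMI, counted per gene with HTSeq where they mapped uniquely, and divided by DESeq size factors, separately for each batch. Batch 2 holds 7 FANS and 4 INTACT libraries, and another library of each technique was not analysed here. For ATAC-seq the authors aligned paired reads with Bowtie2, removed duplicates and called peaks per library with MACS2, and the deposited lists give the fold enrichment at the summit, a −log10 p and q and a score. The depth of the lists is unknown.

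Groups were taken from the labels. RNA was tested per batch with limma 3.58.1 in R 4.3.3 on log2(normalized count + 1), with a trend, over genes with a mean of at least 5, and differences between batches in one model of all 3 tables. Fold changes on this scale understate changes of low genes. Values were taken as whole multiples of 1 read where they lay within 0.006 or 0.05% of one, whichever is larger. This held for 100% of the 10199 to 12680 low values per library at which the tolerance is at most 0.1 reads, so edgeR 4.0.16 and DESeq2 1.42.0 were run on recovered reads as alternatives. The libraries of a batch are not stated to come from separate animals, so p-values measure only the spread between libraries. No libraries of a group agreed within sampling noise. Peak heights (fold enrichment) were ranked within a list and tested with limma. Start sites, spans and exons came from RefSeq on GRCm38.p6, to which all 337 Zfp rows were matched, 2 by an older symbol. Tables were handled in Python 3.11.15 with pandas 2.3.3, and the tests were checked on simulated data.

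The genes and lists were chosen with earlier results of these data known. Named genes were those with a well known function, the 5 with the smallest adjusted p per batch and direction and those past 1.5-fold, the 3 highest and 3 lowest per kb and by peak height, those without a peak, the 3 smallest p of each contrast between batches, members of the 3 largest clusters, and genes that a flag or another setting singled out. Pseudocounts, filters, scalings, count tests, a replicate block, windows and leaving out each library were tried as alternatives. The genes with a called peak rank and the co-repressors were named after their values were seen. Protein features were not analysed here.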

Additional observations from a re-analysis of the deposited data

Results flagged for a closer look

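Values of single libraries that stood apart were looked for in 282 groups of 4 to 10 libraries of the named genes with Dixon's test, which chance alone passes in about 1 in 20 groups. In batch 1, FANS replicate 4 had 3477 normalized counts of Zfp207 where the other FANS libraries had 3925 to 4013, and 2427 of Zfp292 against 2045.5 to 2109. FANS replicate 3 had 341 of Zfp619 against 225 to 232 and 491 of Zfp810 against 432 to 440.2, FANS replicate 1 had 269 of Zfp831 against 324 to 329.8, and INTACT replicate 2 had 209.6 of Zfp961 against 187 to 189. In batch 2, FANS replicate 6 had 787 of Zfp407 against 664 to 708, INTACT replicate 1 had 808 of Zfp281 against 692 to 706 and 336 of Zfp941 against 395 to 401, and INTACT replicate 3 had 139 of Zfp382 against 103 to 109. In batch 3, FANS replicate 2 had 113 of Zfp57 against 151 to 177, INTACT replicate 5 had 119 of Zfp110 against 91.6 to 97.3, INTACT replicate 3 had 150.5 of Zfp235 against 121 to 128, and INTACT replicate 4 had 156 of Zfp316 against 182 to 191 and 104 of Zfp382 against 76.1 to 80.2.

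The technique difference itself differed between batches for some named genes in the joint limma model. For batch 1 minus batch 2 the differences in log2 fold change, with limma adjusted p, were -0.42 for Zfp407 (0.00242), -0.49 for Zfp462 (0.00592), -0.35 for Zfp532 (0.00465), -0.59 for Zfp609 (0.000289), -0.31 for Zfp612 (0.0473), -0.47 for Zfp652 (0.00881) and -0.32 for Zfp827 (0.0161). For batch 1 minus batch 3 they were negative for Zfp407 (-0.56, 7.89e-06), Zfp445 (-0.33, 0.000843), Zfp462 (-0.57, 0.000222), Zfp532 (-0.37, 0.000422), Zfp609 (-0.70, 2.39e-06), Zfp612 (-0.43, 0.000719), Zfp652 (-0.53, 0.000575), Zfp810 (-0.52, 0.00224), Zfp827 (-0.56, 2.65e-06) and Zfp831 (-0.43, 0.00668). They were positive for Zfp277 (0.46, 0.0211), Zfp281 (0.30, 0.0133), Zfp365 (0.32, 0.0167) and Zfp65 (0.41, 0.0298). The batches are different biological sources, and batch 1 also had RNA of higher integrity than the other batches, as the study describes it, and deeper INTACT libraries, and these cannot be told apart.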

How the results depend on the processing

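The median peak height difference was -1.80 percentile points as reported and 0.02 on quantile-normalized log2 heights, another unit. No named gene that was called in RNA changed its direction under the alternatives that were run, while small differences that were not called changed sign in some of them. Of the 60 genes lower in batch 1, 47 to 60 kept the call in each alternative, and of the 19 higher 13 to 19. The median of batch 1 moved to -0.095 under quantile normalization and to -0.10 with genes of a mean of at least 200, and with genes of a mean of at least 50, 6 were lower by 1.5-fold. In batch 2, 2 genes were higher with a pseudocount of 5, a mean of at least 20, edgeR or DESeq2, and DESeq2 called 1 lower. With a window of 2 kb 1 gene had no peak, and 8 had none with 1 start per gene, an alternative chosen after seeing the data. For peak height, 8 genes were higher on quantile-normalized log2 heights and 1 with 1 start per gene. The cause of these changes was not tested.

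With single libraries left out, batch 1 gave 47 to 56 genes lower and 13 to 23 higher, 1 to 3 lower by 1.5-fold and a median of -0.09 to -0.07. Batch 2 gave 0 to 1 lower, the 1 without FANS replicate 5, and 1 to 2 higher, and batch 3 gave 2 to 4 higher. Leaving out a library in the joint model, chosen after seeing the data, gave 6 to 11 negative differences for batch 2, and 24 to 34 negative and 5 to 11 positive ones for batch 3. Peak height gave 3 to 39 lower and 0 to 3 higher.

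Equal replicate numbers did not pair the libraries: the correlations of same-numbered libraries ran from -0.07 to 0.11, and 0 of 4, 0 of 3 and 2 of 5 INTACT libraries of batches 1, 2 and 3 correlated best with their own number. With a replicate block, 53 genes were lower and 17 higher in batch 1, 0 were higher in batch 2, 3 were lower and 7 higher in batch 3, and for peak height 0 were lower and 0 higher. Named genes that gained a call in batch 3 with the block were Zfp609 (0.21, limma adjusted p = 0.0266) and Zfp827 (0.20, 0.0362), both higher, and Zfp365 (-0.21, 0.0224), lower.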
